A study of Mus musculus with 6 samples.

Results

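Meiotic prophase genes were followed in whole mouse testis 10 days after heating. They comprised 34 genes, chosen as listed meiotic genes with a probe on the array, out of 35019 genes named there, and each gene was read from its brightest measured probe. The list covers 25 genes of early prophase, 4 regulators of pachytene and 5 genes of late spermatocytes. All 34 were found, through 48 probes, and 32 of them had enough signal to be tested. The 2 others, Mei4 and Ccna1, were not well above background on any of the 6 arrays.

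In meiotic prophase the spermatocyte breaks its own DNA, finds the homologous chromosome by strand exchange, and holds the paired chromosomes along protein axes joined by the synaptonemal complex. Cohesin forms the base of those axes, and crossovers made along them keep homologues together until the meiotic divisions. Spermatocytes in prophase are known as heat-sensitive cells of the testis, and their genes are used as markers of how far spermatogenesis has advanced.

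The study compared 3 C57BL/6 (B6) mice with 3 mice of the congenic strain B6.MRLc1-(D1Mit202–D1Mit403), called B6.MRLc1 here, which has a B6 background and an MRL-type telomeric segment of chromosome 1 from 67.97 to 81.63 cM. Its title names the onset of calcification in heated testis as the subject. All 6 mice were males aged 3 months, and in all of them the scrotum had been heated to 43°C for 20 min on a single occasion. Total RNA of each testis sample went onto 1 single-colour Agilent array, with n = 3 per strain. No unheated testis and no other time point was analysed here, so every value is a strain difference within heated testis, and the segment holds many genes that differ together. The design text counts 3 mice per strain, and p-values measure the spread between these samples. On the slide the 3 B6 arrays lay in row 1 and the 3 B6.MRLc1 arrays in row 2, and the rows therefore cannot be told apart from the strains.

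The array's 75th percentile ranged from 556.8 to 669.8 intensity units. Between 68.6% and 69.0% of spots were well above background on B6 arrays and between 58.0% and 64.7% on B6.MRLc1 arrays. The scanner software's additive error ran from 2.66 to 3.14 intensity units in B6 and from 3.38 to 5.68 in B6.MRLc1, so dim probes were less precise in the congenic strain. Each level is the log2 of a probe's signal over its array's 75th percentile, so that 0 stands for that percentile, and levels of different probes are set side by side only to pick the brightest and dimmest tested probe of each stage, by the mean over the 6 arrays. Differences are B6.MRLc1 minus B6 in log2 units, and SE is their standard error in the limma fit. A gene was called at a limma p-value under 0.05 after Benjamini-Hochberg adjustment over all 25276 genes tested.

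Most meiotic genes differed little between the strains. Of the 32 tested genes 2 were called lower in B6.MRLc1, Rec8 and Nsun7, beside 2.22% of all genes called lower and 2.63% called in either direction. None was called higher, where 0.404% of all genes were, and at an unadjusted limma p under 0.05 7 genes passed (20.3% of all genes did), with 6 of them lower and 1, Mybl1, higher. In a fit of single probes 2 of the members' 44 kept probes were called, those of the same genes, beside 1.79% of all kept probes. The median difference of the 32 was -0.02, beside 0.02 over all genes, with 18 below 0 and 14 above. The difference was under 0.1 in either direction for 18 genes and over 0.5 for 5, namely Nsun7, Ybx2, Ovol1, Spo11 and Rec8, all of them lower in value. For 21 genes, or 65.6%, the 95% interval of the difference lay wholly within 0.5 of 0, and the share over all genes was 65.8%. In these whole-testis samples fewer cells of a type and less RNA per cell cannot be told apart.

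**Figure D1:**
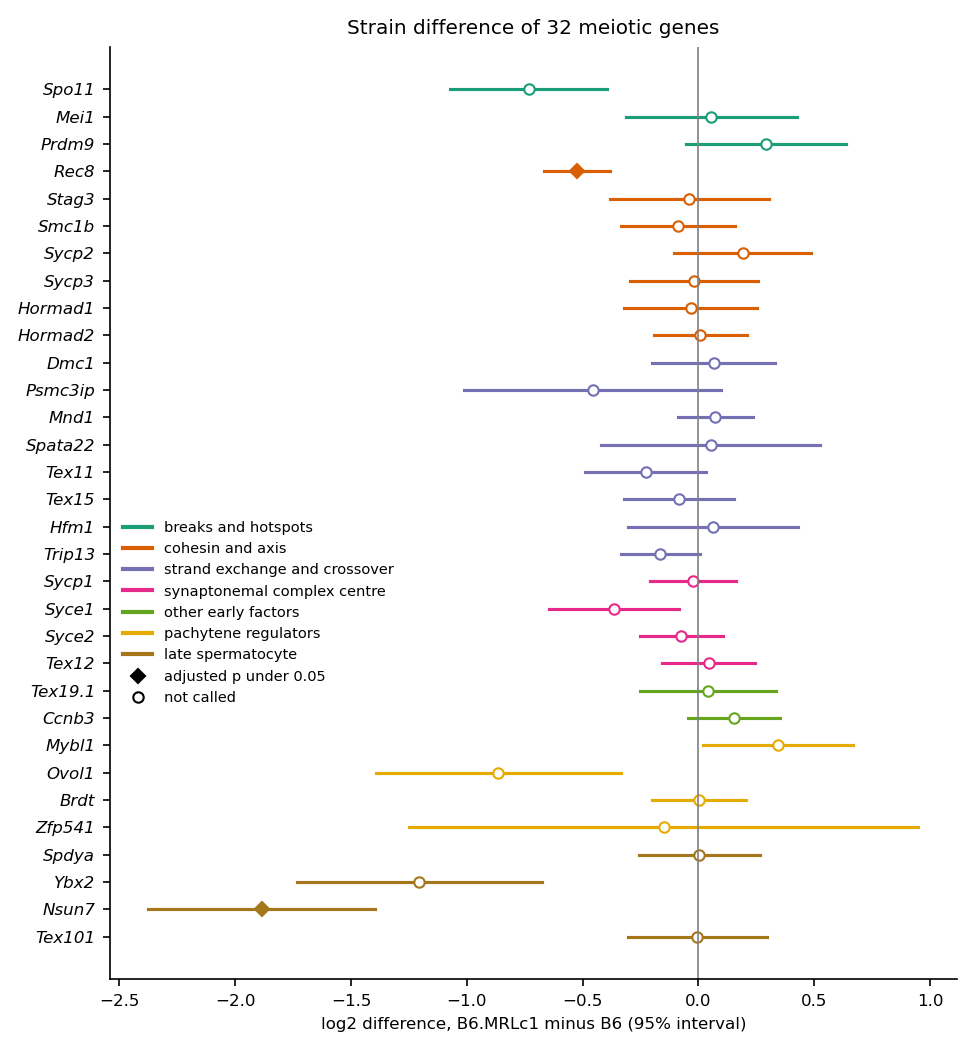
Log2 difference between the strains, B6.MRLc1 minus B6 (horizontal axis), for the 32 tested meiotic genes in order of role (vertical axis), with 95% limma intervals from 3 arrays per strain. Most intervals cross 0, and the filled diamonds mark Rec8 at -0.52 and Nsun7 at -1.89.

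The promoters of the members were searched for a few motifs, without use of the expression values, and 12 of 29 genes held at least 1 of them. The promoters shown were chosen after the search, since 4 early genes carry a pair of sites. The RefSeq promoter table (GRCm38.p6) held 33 promoters of 29 of the genes, not those of Spo11, Tex11, Tex15, Mybl1 and Ovol1. The 250 bases before each start were searched on both strands. The site GCGGGAA of E2F6, a repressor that keeps meiotic genes silent in somatic cells, was before 6 of the 29 genes (20.7%) and 4.38% of all 27025 genes in the table. The E-box CACGTG, a site of Myc and Max family proteins, was before 7 (24.1%) against 6.86%. Both sites stood in the same promoter for 4 genes (13.8%), Sycp3, Hormad1, Syce2 and Tex12, and for 0.374% of all genes. Members' promoters were also richer in G and C, with a median of 61.6% against 52.4%, and in CpG pairs, with a median of 15 against 6. Sites that contain CpG are more frequent in such sequence, and the part of base composition was not tested. Promoters of 3 genes with both sites follow, with the sites in capitals: Sycp3 at chr10:88459337-88459586 (plus strand), Hormad1 at chr3:95559427-95559676 (plus strand) and Tex12 at chr9:50561269-50561518 (minus strand).
Sycp3: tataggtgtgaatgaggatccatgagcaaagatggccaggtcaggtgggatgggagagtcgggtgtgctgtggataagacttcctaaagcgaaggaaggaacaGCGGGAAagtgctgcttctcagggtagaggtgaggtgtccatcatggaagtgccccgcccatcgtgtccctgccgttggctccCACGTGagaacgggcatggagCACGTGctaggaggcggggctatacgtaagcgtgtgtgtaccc
Hormad1: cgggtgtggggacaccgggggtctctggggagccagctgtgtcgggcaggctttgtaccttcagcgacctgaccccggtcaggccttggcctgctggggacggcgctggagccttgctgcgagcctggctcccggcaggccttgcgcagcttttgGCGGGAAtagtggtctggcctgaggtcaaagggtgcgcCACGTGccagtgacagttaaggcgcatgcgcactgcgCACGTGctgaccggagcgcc
Tex12: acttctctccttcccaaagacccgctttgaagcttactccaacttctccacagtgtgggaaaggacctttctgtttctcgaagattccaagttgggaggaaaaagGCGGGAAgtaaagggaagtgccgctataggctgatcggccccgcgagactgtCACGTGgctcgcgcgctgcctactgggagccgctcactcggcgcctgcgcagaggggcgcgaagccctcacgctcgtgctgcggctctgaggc

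The 4 genes with both sites had differences between -0.07 and 0.04, and none was called. Neither site was found in the promoters of the 2 called genes, which are printed for comparison. Rec8 lies at chr14:55617916-55618165 (plus strand) and held no searched motif. Nsun7, at chr5:66259648-66259897 (plus strand), held the MYB motif GGCAGTT on the reverse strand and the RFX motif GTTGCCA, which are in capitals. MYBL1 and RFX2 are known as activators of spermatocyte and spermatid genes. The MYB motif was before 2 of the 29 genes (Ccnb3 and Nsun7) and 3.86% of all genes, and the RFX motif before 2 (Ybx2 and Nsun7) and 4.19% of all. No member's promoter held the cyclic AMP response element TGACGTCA, found before 1.77% of all genes, or its shorter form TGACGT outside a full element, found before 5.68%.
Rec8: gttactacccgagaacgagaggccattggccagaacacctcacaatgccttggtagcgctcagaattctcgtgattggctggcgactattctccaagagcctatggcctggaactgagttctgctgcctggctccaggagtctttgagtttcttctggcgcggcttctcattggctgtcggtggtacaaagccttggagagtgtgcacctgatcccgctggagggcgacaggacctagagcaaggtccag
Nsun7: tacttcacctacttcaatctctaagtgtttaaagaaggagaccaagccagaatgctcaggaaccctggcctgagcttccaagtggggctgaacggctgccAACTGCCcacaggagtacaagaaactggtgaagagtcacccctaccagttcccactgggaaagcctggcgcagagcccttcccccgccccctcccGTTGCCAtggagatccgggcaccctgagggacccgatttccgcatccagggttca

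Early prophase opens with the genes that make and place DNA breaks. Spo11 encodes the enzyme that cuts the DNA. Its log2 signals were -3.70, -4.21 and -4.10 in B6 and -4.74, -4.70 and -4.76 in B6.MRLc1. The strains did not overlap, and the 3 congenic arrays were within a narrow band. The difference was -0.73 (SE 0.138, limma adjusted p = 0.0592), which did not pass. The probe was dim, with 2 of the 3 B6.MRLc1 arrays well above background, and after a background correction by normexp the difference was -0.19. Prdm9, which marks the hotspots where breaks are made, had a difference of 0.29 (95% interval -0.05 to 0.64), and its other probe gave 0.36. Mei1, needed for break formation, had a difference of 0.06 (95% interval -0.31 to 0.43).

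The cohesin and axis genes held the clearest early difference. Rec8, the meiotic cohesin subunit that holds sister chromatids together through the first division, had log2 signals of 2.15, 2.23 and 2.26 in B6 and 1.72, 1.72 and 1.64 in B6.MRLc1. All congenic arrays were below all B6 arrays, and each strain's arrays lay close together. Rec8 fell in B6.MRLc1 by 0.52 (SE 0.058, limma adjusted p = 0.0228), a signal 1.44-fold higher in B6, read from 1 probe at chr14:56244160-56244219 (mm9). The size was the same after normexp, at -0.52. Leaving out 1 array at a time kept the difference between -0.56 and -0.50. The adjusted p then rose above 0.05, and the call was lost, in the fits that lacked B6 array 1 (0.064), B6 array 2 (0.0844), or any of the B6.MRLc1 arrays 1 (0.0721), 2 (0.0722) and 3 (0.0579).

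Its partners in cohesin had smaller differences. Stag3, a cohesin subunit specific to meiosis, differed by -0.04 (95% interval -0.38 to 0.30). Smc1b, the meiotic SMC subunit, differed by -0.09 (95% interval -0.34 to 0.16). These intervals do not reach the Rec8 estimate of -0.52. Whether Rec8 differed from its partners was not tested. Sycp3 and Sycp2, which build the lateral axis, differed by -0.02 (95% interval -0.29 to 0.26) and 0.19 (95% interval -0.11 to 0.49). Sycp3 signals were 1.06, 0.97 and 1.24 in B6 and 0.91, 1.07 and 1.23 in B6.MRLc1, and the strains overlapped. Sycp2 had the lowest mean over the 6 arrays among the 24 tested early genes, with log2 signals of -4.50, -4.43 and -4.71 in B6 and -4.18, -4.35 and -4.53 in B6.MRLc1. The HORMA-domain proteins of unsynapsed axes, Hormad1 and Hormad2, differed by -0.03 and 0.01.

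**Figure D2:**
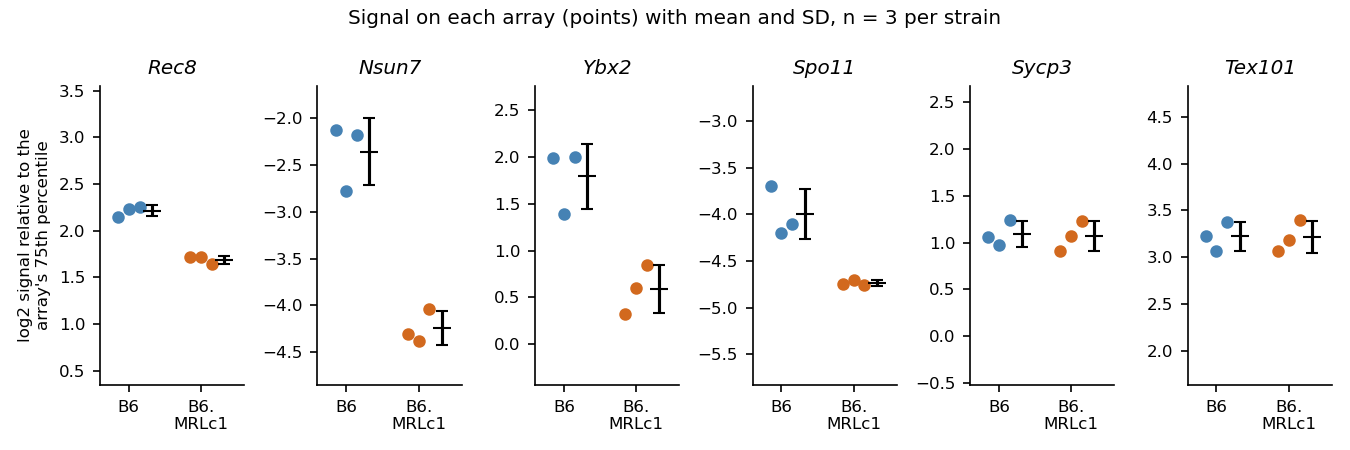
Log2 signal over the 75th percentile (vertical axes, each spanning the same range in log2 units) on the 3 B6 and 3 B6.MRLc1 arrays for 6 genes, with the mean and SD in black. Rec8, Nsun7, Ybx2 and Spo11 have B6.MRLc1 arrays that are all below the B6 arrays, and Sycp3 and Tex101 overlap.

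None of the 8 genes of strand exchange and crossover was called, and none reached an unadjusted limma p under 0.05. Dmc1, the meiotic recombinase, differed by 0.07 (95% interval -0.20 to 0.33), and its other 2 probes gave 0.13 and 0.15. Mnd1 and Psmc3ip (HOP2) form the complex that helps DMC1. Mnd1 differed by 0.07 (95% interval -0.09 to 0.24). Psmc3ip was more variable, with log2 signals of -0.16, -0.86 and -0.78 in B6 and -1.19, -0.77 and -1.20 in B6.MRLc1. B6 array 1 was its highest and the strains overlapped, with a difference of -0.46 (95% interval -1.01 to 0.10). Tex15, which is needed to load recombinases, and Hfm1, a crossover helicase, differed by -0.08 and 0.06. Tex11, an X-linked crossover gene, differed by -0.23 (95% interval -0.49 to 0.03). Trip13, the ATPase that removes HORMA proteins from synapsed axes, had all B6.MRLc1 arrays below all B6 arrays with a difference of -0.17 (limma adjusted p = 0.259). Spata22, which acts on resected ends, differed by 0.05 with a wider interval, from -0.42 to 0.53.

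Genes of the synaptonemal complex centre were nearly level, apart from Syce1. Sycp1, the transverse filament, differed by -0.02 (95% interval -0.21 to 0.16), and the central element genes Syce2 and Tex12 by -0.07 (95% interval -0.25 to 0.11) and 0.04 (95% interval -0.16 to 0.24). Syce1, another central element gene, had log2 signals of 2.06, 1.90 and 2.17 in B6 and 1.55, 1.62 and 1.87 in B6.MRLc1. The highest congenic array was just below the lowest B6 array. Its difference was -0.36 (SE 0.114, limma adjusted p = 0.162), which did not pass. Of the other early germ cell factors, Tex19.1, which restrains retrotransposons, had the brightest tested early probe, with log2 signals of 2.58, 2.68 and 2.88 in B6 and 2.75, 2.59 and 2.92 in B6.MRLc1. The strains overlapped. Ccnb3, a cyclin of early prophase on the X chromosome, differed by 0.15 (95% interval -0.05 to 0.35).

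None of the 4 pachytene regulators was called by limma, and Mybl1 and Ovol1 had an unadjusted p under 0.05, in opposite directions. Mybl1 (A-MYB), the transcription factor that switches on pachytene genes, had log2 signals of -2.21, -2.03 and -1.84 in B6 and -1.60, -1.88 and -1.56 in B6.MRLc1. Congenic array 2 lay below B6 array 3, so the strains overlapped, and the difference was 0.34 (SE 0.131, limma adjusted p = 0.227). It is the only member on chromosome 1, at chr1:9659134-9659193 (mm9), near the low-numbered end. The congenic segment is telomeric, from 67.97 to 81.63 cM, so a probe at this end of the chromosome lies outside it. Brdt, a bromodomain reader of acetylated histones and the brightest tested probe of this stage, had log2 signals of -0.74, -0.58 and -0.52 in B6 and -0.69, -0.53 and -0.61 in B6.MRLc1. The strains overlapped, with a difference of 0.00 (95% interval -0.20 to 0.20), and a second Brdt probe gave 0.20.

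Ovol1 and Zfp541 were dim. Ovol1, a zinc-finger repressor needed for passage through pachytene, had log2 signals of -3.96, -4.28 and -4.32 in B6 and -4.78, -5.49 and -4.88 in B6.MRLc1, and the strains did not overlap. Only 1 of its 3 congenic arrays was well above background. Its difference was -0.86 (SE 0.214, limma adjusted p = 0.106), and -0.18 after normexp. Zfp541, a zinc-finger protein that acts with histone deacetylases at the end of pachytene, had the dimmest tested probe of the stage, with log2 signals of -4.47, -5.17 and -4.43 in B6 and -5.79, -4.37 and -4.37 in B6.MRLc1. Congenic array 1 was its lowest. Its interval was the widest of the 32, from -1.25 to 0.95, so these arrays do not settle its direction.

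Of the 4 tested late spermatocyte genes, Nsun7 was called lower and Tex101, Spdya and Ybx2 were not called. Tex101, a germ cell surface protein needed for sperm to pass into the oviduct, had the brightest tested late probe, with log2 signals of 3.23, 3.06 and 3.38 in B6 and 3.06, 3.19 and 3.40 in B6.MRLc1. The strains overlapped, and the difference was -0.00 (95% interval -0.30 to 0.30). Spdya, an activator of CDK2 at spermatocyte telomeres, differed by 0.00 (95% interval -0.26 to 0.27), with -0.22 at a second, dimmer probe.

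Ybx2 and Nsun7 were the members with the largest differences. Ybx2 (MSY2) binds and stores messenger RNA in late spermatocytes and round spermatids. Its log2 signals were 2.00, 1.39 and 2.00 in B6 and 0.32, 0.60 and 0.84 in B6.MRLc1. The strains did not overlap, although array B6 2 was lower than the other B6 arrays. The difference was -1.20 (SE 0.214), a signal 2.30-fold higher in B6, and the limma adjusted p of 0.0526 just missed the threshold. A second probe nearby in the gene gave -0.99, and the difference was called under 4 of the 16 alternative settings, among them normexp (-1.17, adjusted p = 0.0214).

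Nsun7 encodes a member of the NOP2/Sun RNA methyltransferase family that is linked to sperm motility. Its log2 signals were -2.13, -2.77 and -2.17 in B6 and -4.31, -4.38 and -4.04 in B6.MRLc1. The strains were far apart. Nsun7 fell by 1.89 (SE 0.198, limma adjusted p = 0.0213) at its brightest probe, chr5:66689181-66689240 (mm9), with 2 of 3 congenic arrays well above background there. After normexp the fall was smaller, at -0.86, and was still called (adjusted p = 0.0205). It did not pass in fits that lacked B6 array 1 (adjusted p = 0.0797), B6.MRLc1 array 1 (0.0721) or B6.MRLc1 array 2 (0.0705).

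The 3 Nsun7 probes did not give the same result, and their sequences show how they differ. A spanning probe covers chr5:66687124-66689091 (mm9) with 60 bases, skipping 1908 bases of genome, and was well above background on 1 B6 array only. The inside probe, at chr5:66687139-66687198, shares 15 bases with it up to position 66687153 and then reads 45 bases straight on into the stretch that the spanning probe skips. The inside probe had log2 signals of -3.54, -3.63 and -3.52 in B6 and -2.44, -3.38 and -3.70 in B6.MRLc1. Congenic array 1 was its highest and the strains overlapped, with a difference of 0.39 (SE 0.318, limma adjusted p = 0.548 over all probes). The spanning probe had log2 signals of -5.13, -5.84 and -6.13 in B6 and -6.72, -7.19 and -6.96 in B6.MRLc1. It was too dim to be tested, with a difference of -1.25, and -0.03 after normexp. Among kept probes, the fall in Nsun7 was thus seen in the downstream part of the gene and not where skipped sequence is included. Both probes are printed from the first shared base for 30 bases, with the shared bases in capitals.
Spanning: TTCATTGGATCAAAGagattctgctcttct
Inside: TTCATTGGATCAAAGgttggtgtgccccgc

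**Figure D3:**
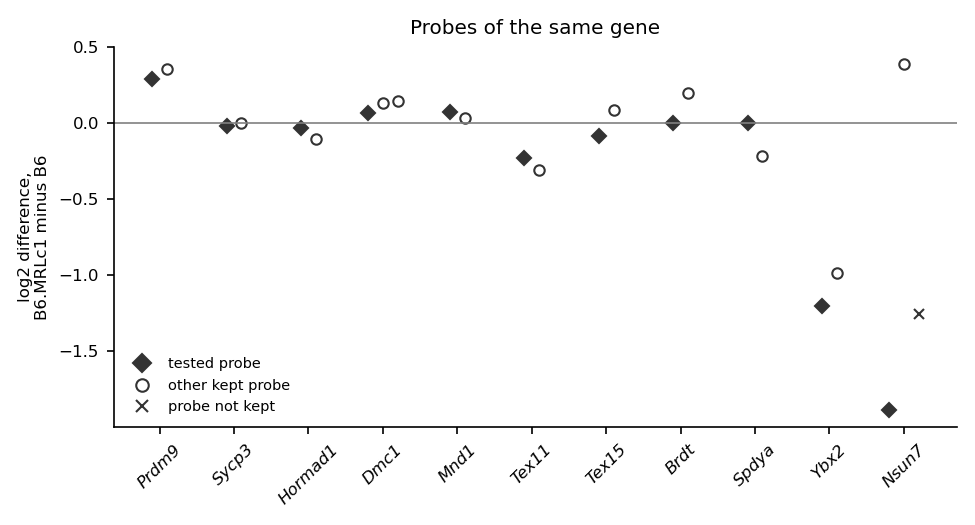
Log2 difference, B6.MRLc1 minus B6 (vertical axis), at each probe of the 11 tested genes with more than 1 probe (horizontal axis). The probes of Ybx2 lie at -1.20 and -0.99, and Nsun7 has probes on either side of 0.

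By stage, 1 of the 24 tested early genes was called, 0 of the 4 pachytene genes and 1 of the 4 tested late genes. The median differences were -0.02, -0.07 and -0.60. With 4 genes in each of the later stages these medians describe the genes and no more. Arrays of the strains did not overlap for 7 of the 32 genes, Spo11, Rec8, Trip13, Syce1, Ovol1, Ybx2 and Nsun7, all lower in B6.MRLc1, where 13.8% of all genes were lower without overlap. No member was higher without overlap, where 14.8% of all genes were.

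Members also moved together from array to array within a strain. Among the B6 arrays, array 3 was the highest for 20 of the 32 genes (62.5%, against 43.8% of all genes) and array 2 the lowest for 19 (59.4% against 27.0%). Among the B6.MRLc1 arrays, array 3 was the highest for 23 genes (71.9% against 34.2%) and array 1 the lowest for 23 (71.9% against 39.4%). The median over members of the deviation from the gene mean ran from -0.05 to 0.11 in B6 and from -0.15 to 0.10 in B6.MRLc1, so the strains overlapped by this measure. The members share each array and each testis, and are not independent readings of this order. Array numbers are also slide columns in both strains, so mouse, array and slide column cannot be told apart. Leaving out B6.MRLc1 array 1 moved the median strain difference from -0.02 to 0.04, and leaving out B6.MRLc1 array 3 moved it to -0.10.

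**Figure D4:**
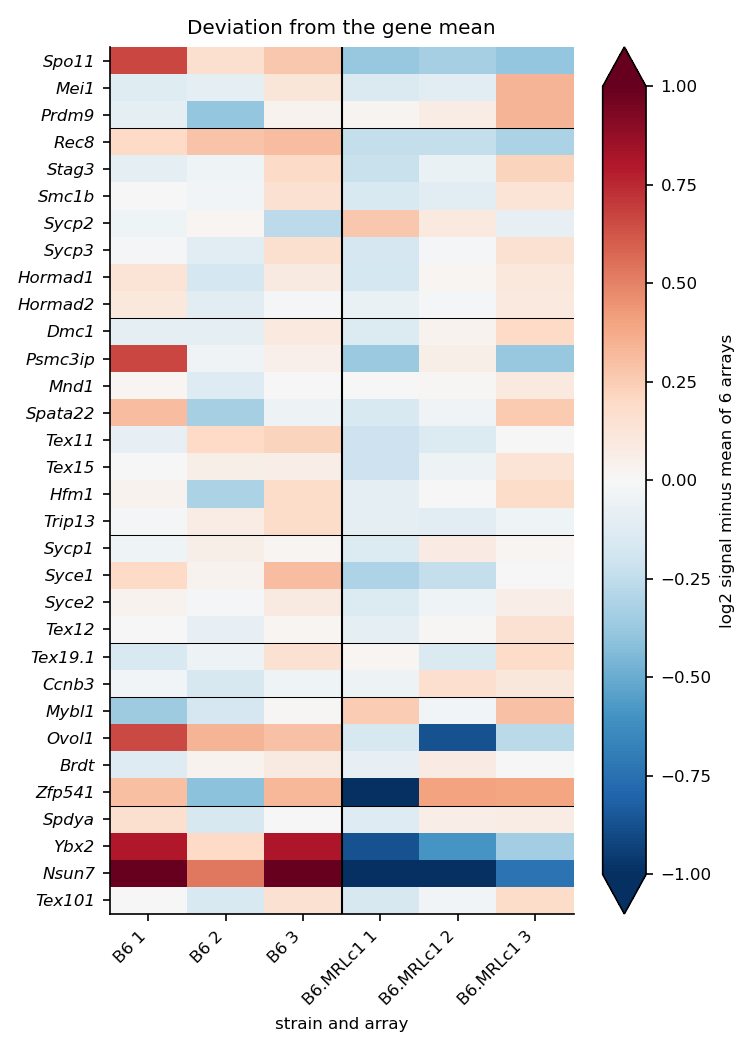
Log2 signal minus the gene's mean over 6 arrays (colour) for the 32 tested meiotic genes in order of role (rows) on each array (columns, B6 to the left of the line). Array 3 of each strain is mostly above the mean and B6.MRLc1 array 1 mostly below, while Ybx2 and Nsun7 divide by strain.

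Other genes of the meiotic pathway were read from a list of 49, of which 47 were tested. The list was chosen with earlier results of these data known, so its shares describe these genes and do not test them as a group. In B6.MRLc1, 5 were called lower (10.6%, beside 2.22% of all genes) and 0 higher, with a median difference of -0.18 beside 0.02 over all genes. At an unadjusted limma p under 0.05, 16 were lower and 2 higher, and 11.1% of all genes were lower by that measure. Of the 47, 40 were well above background on all 6 arrays. Cntd1 was so on no congenic array and passed the filter through B6 alone (-0.81, and -0.03 after normexp). With only probes well above background on all arrays, the median of the 41 genes left was -0.08. Plk1, a kinase of division entry, fell by 0.70 (limma adjusted p = 0.0191). Cdc25c, the phosphatase that activates the division kinase, fell by 0.83 (limma adjusted p = 0.0384). Sgo2a, which protects REC8 cohesin at centromeres, fell by 0.39 (limma adjusted p = 0.0485). These 3 genes act at cell division. After normexp the differences of Sgo2a and Cdc25c were -0.15 and -0.33 and no longer passed (adjusted p = 0.199 and 0.056), while Plk1 stayed called at -0.65. Exo1, the exonuclease of mismatch repair and crossover formation, fell by 0.82 (limma adjusted p = 0.0247), and its probe lies at chr1:177838682-177838741 (mm9). The Sgo2a probe lies on the same chromosome but nearer the low-numbered end, at chr1:58081712-58081771, while the congenic segment is telomeric.

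Ldhc, the germ cell lactate dehydrogenase that appears in pachytene and persists in spermatids, fell by 3.18 (SE 0.501, limma adjusted p = 0.042). Its log2 signals were 2.76, 1.72 and 2.55 in B6 and -1.84, -0.48 and -0.19 in B6.MRLc1, with no overlap. Among the genes that did not pass, the smallest p-values belonged to Fignl1 (-0.34), Ubr2 (0.24), Piwil1 (-2.27) and Pgk2 (-0.91). After normexp their differences were -0.31, 0.23, -0.73 and -0.37 in that order. The calls of this list depended on each array, with 3 left without B6 array 3, 1 left without B6.MRLc1 array 3 and 0 left in limma fits that lacked any one of the others, where 14 to 16 genes had an unadjusted p under 0.05. Without B6.MRLc1 array 1 the median difference of the list was -0.0696. Piwil1, a piRNA-binding protein of pachytene and round spermatids, was well above background on 2 of 3 congenic arrays. Pgk2 is a glycolytic enzyme of late spermatocytes and spermatids.

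Markers of the cells on either side of prophase were read from the same fit, and their lists too were chosen with earlier results known. Of 14 spermatogonial genes 1 was called, Dmrtb1 (-1.29), a factor that governs the entry into meiosis, and the median was 0.11. Of 12 tested round spermatid genes 4 were called, all lower, beside 2.22% of all genes. They were Dkkl1 (-1.98), Acr (-0.90), Spaca3 (-3.20) and Zpbp2 (-1.36), and the list's median was -1.04 (-0.43 after normexp). Of the 12, 10 were below 0, and Spaca1 (0.02) and Zpbp (0.08) were above it. Spaca3 was well above background on only 1 of 3 congenic arrays, and its difference was -1.17 after normexp, where that of Acr was -0.52 and both were still called. Leaving out 1 array left 3 of these calls without B6.MRLc1 array 3, 1 without B6 array 2 and 0 in the other fits, and the Dmrtb1 call was lost without B6 array 1. All 13 elongating spermatid genes were below 0 with a median of -2.11. Limma called 0 of them after adjustment, although all 13 had an unadjusted p under 0.05 (20.3% of all genes did). Of these genes, 8 were well above background on all 6 arrays. Akap3 was so on no congenic array and passed the filter through B6 alone. After normexp all 13 stayed below 0, from -3.43 (Tnp2) to -0.23 (Akap3). The summed signal of the elongating genes, in multiples of the 75th percentile, ran from 14.7 to 45.6 in B6 and from 2.25 to 6.81 in B6.MRLc1. That of the round spermatid genes ran from 4.63 to 6.01 and from 2.57 to 3.15. Ybx2, Nsun7, Ldhc and Pgk2 therefore had lower values in the same arrays as spermatid genes, and the part of spermatids in their differences was not tested.

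Of the somatic lists none had a called gene by limma. Medians were 0.16 for 11 Sertoli genes, 0.17 for 8 Leydig genes, 0.16 for 7 peritubular myoid genes, -0.17 for 9 macrophage genes and -0.09 for 6 endothelial genes. At an unadjusted limma p under 0.05 the counts were 2, 3, 3, 1 and 2, beside 20.3% of all genes. The 2 endothelial genes were lower in B6.MRLc1 and the others higher. The macrophage gene was Cx3cr1 (0.79), opposite in sign to the median of its list. The 6 tested adipocyte genes had a median of 1.07, and 5 had an unadjusted p under 0.05. Their summed signal ran from 3.76 to 6.28 in B6 and from 6.95 to 14.3 in B6.MRLc1, and the part of fat tissue in the results was not tested. The meiotic members' summed signal ran from 55.2 to 63.5 in B6 and from 49.5 to 58.6 in B6.MRLc1, ranges that overlap.

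**Figure D5:**
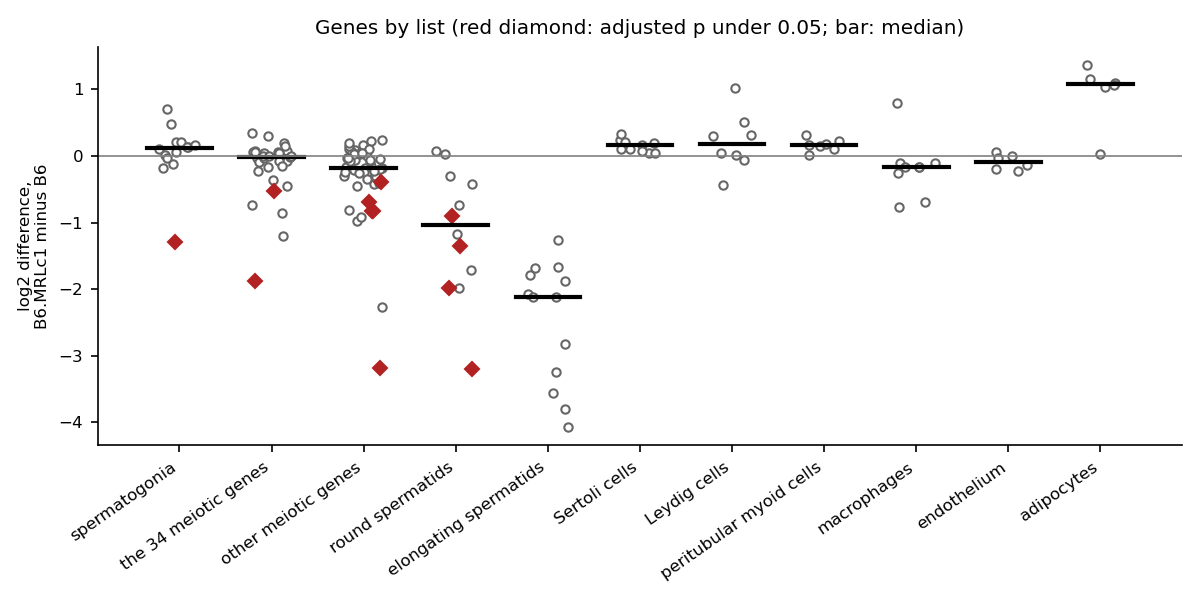
Log2 difference, B6.MRLc1 minus B6 (vertical axis), of each tested gene in the meiotic list and in lists for other stages and cell types (horizontal axis), with the median as a bar and called genes as diamonds. The meiotic genes centre at -0.02, round spermatid genes at -1.04 and elongating spermatid genes at -2.11.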

How the data were processed

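Gene expression was read in 6 whole-testis RNA samples labelled with Cy3, from 0.1 µg RNA each, per the labels' protocols. The deposited scanner files hold processed signal intensity per spot after background treatment by Feature Extraction 10.7.3.1, per the file headers, while the submitters' processing notes name version 9.5.3. Probe positions are mm9. The authors' deposited series values are log2 signals that matched these intensities after centring.

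Intensities were divided by each array's 75th percentile and log2-transformed, without control and outlier-flagged spots, with spots of a probe averaged. A probe was kept with values on at least 4 arrays and over 0.5 of its spots well above background on at least 3, which left 36627 of 55681 probes. Genes were named by RefSeq accession (27235 probes), by the file's symbol where RefSeq lists it (3581) or by the file alone (24865). The brightest kept probe stood for each gene. Strains were compared with limma 3.58.1 in R 4.3.3, tested on simulated data, with 95% intervals and normexp (offset 50) among 16 alternatives. No other tool was run. The number of arrays limits the precision.

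The members and lists were chosen with earlier results of these data known. All members are named. Those called or with an adjusted p under 0.1 have full statistics, as do some chosen after their values were seen (Ovol1, Syce1, Mybl1, Psmc3ip, Sycp3), and the brightest and dimmest of each stage have values by array. Of other lists, called genes and those with the smallest p are named.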

Additional observations from a re-analysis of the deposited data

How the results depend on the processing

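The 2 genes called lower became 0 with no filter on dim probes (35019 genes tested), 5 with array weights (1 higher), 0 with the replicate block and 1 with the mean of all kept probes, and 0 to 2 when each array was left out. For the other meiotic genes the 5 called lower became 0, 10 (2 higher), 0 and 6 under these settings and 0 to 3 with an array left out; their median of -0.18 became -0.0678 with normexp and -0.0592 with array weights, and -0.23 to -0.0696 with an array left out. In the limma fits without the filter and with the block, 7 and 9 members and 18 and 20 other genes had an unadjusted p under 0.05. Causes of these changes were not tested. An unfiltered fit adjusts over more genes and a left-out array leaves fewer samples, and the part of either was not tested. Array weights called Spo11, Ovol1 and Ybx2 lower too, and Prdm9 higher. Of all genes, 562 lower and 102 higher became 611 and 278 with normexp and 340 and 146 with the deposited values, and 664 in all became 50 without the filter, 459 with dim values raised to a floor, 1202 with a variance trend, 4237 with array weights, 0 with the block (4866 at an unadjusted p under 0.05) and 50 to 486 with an array left out. Rec8 and Nsun7 were each called in 9 of 16 alternatives. The members' median ran from -0.10 to 0.08. Rec8 stayed between -0.56 and -0.50. Nsun7 was reversed, at 0.39, when only probes well above background on all arrays were kept, since its other probe is then read. Members not called in either fit changed sign in 47 of 509 values under alternatives, over 17 genes with differences up to 0.15 in size. The design text names no pairing of the samples. Correlations of deviations were -0.04, 0.17 and 0.09 for the same replicate numbers, which are also slide columns. For unlike numbers they ran from -0.16 to 0.07. Whether samples with the same number share an effect was not tested. Signal over background limits Spo11, Ovol1, Nsun7 and Zfp541.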
